A study of Homo sapiens with 6 samples.

Results

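The 10 genes described here encode proteoglycan core proteins: the testicans SPOCK1 and SPOCK2, the 4 syndecans SDC1, SDC2, SDC3 and SDC4, the glypicans GPC1 and GPC4, and the basement membrane proteoglycans AGRN (agrin) and HSPG2 (perlecan). They were chosen by name, with earlier results of these data known. The study itself names SPOCK2 among the transcripts that rose most when GLI2 was induced in these cells. Each of the 10 matched a row of its own among the 25442 genes of the table. Levels were measured by RNA-seq in 6 libraries of YAPC, a human pancreatic ductal adenocarcinoma line that served the study as a model of the classical subtype. The 3 iEV libraries came from cells with the empty doxycycline (Dox)-inducible vector pRetroX-Tight-Puro, and the 3 iGLI2 libraries from cells with the same vector carrying Flag-tagged human GLI2, a transcription factor of the Hedgehog pathway. Both kinds of cells carried rtta, the Dox-responsive activator, and both were kept in Dox for 6 days, so every value compares GLI2 with empty vector under Dox. Whether the cells of each kind were a clone or a pool is not given in the sources used here. The methods speak of independent biological replicates for the study's data in general, without saying of these libraries that each came from its own culture, so p-values measure the spread between these libraries, which may be technical.

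A proteoglycan is a protein that carries long sugar chains, in these families mostly heparan sulfate, whose sulfate groups bind growth factors, morphogens such as WNT and Hedgehog ligands, chemokines and matrix proteins. Syndecans span the plasma membrane and are shed from it by proteases, glypicans are held on the cell surface by a lipid anchor, and agrin and perlecan are secreted into basement membranes. Testicans are secreted calcium-binding proteins of the SPARC family that carry heparan and chondroitin sulfate. In pancreatic ductal adenocarcinoma, glypican-1 and syndecan-1 are known as surface proteins of the tumor cells.

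Values are FPKM, fragments scaled to transcript length and to library size, a unit read from the form of the deposited table. Those of 3 libraries are always listed in the order of replicates 1, 2 and 3. The scale is per length, so levels of different genes can be set side by side. The number of reads behind a value is unknown, so no counting error is given. GLI2 followed the labels, with 0.344 to 0.466 FPKM in iEV and 94.5 to 207 FPKM in iGLI2 cells. The epithelial markers KRT19, EPCAM, CDH1 and CLDN4 summed to between 1281 and 1411 FPKM in iEV and between 1299 and 1376 FPKM in iGLI2 libraries. Within this sum, EPCAM (log2 fold change 0.37, limma adjusted p = 0.00709) and CDH1 (0.37, 0.0169) were called higher, and CLDN4, at -0.30 with groups that did not overlap, was not called (0.0628). The CDH1 call was lost without any one of iEV replicates 2 and 3 and iGLI2 replicates 2 and 3, with adjusted p between 0.0610 and 0.0775. KRT8 and KRT18, also on that list of 6, are listed at 0 in every library although every cell of this kind uses them. Both carry the same span, on chromosome 12 from 53290971 to 53346685. A listed 0 was therefore not read as absence. Of 6 fibroblast markers 1, COL1A1, reached a mean of 1 FPKM, and the summed list was between 1.36 and 1.57 FPKM in iEV and between 2.31 and 3.02 FPKM in iGLI2 libraries. COL1A1 made up most of this sum and was higher in iGLI2 cells, with DCN listed at 0 and COL1A2, LUM, COL3A1 and PDGFRB each under 0.05 FPKM in both groups. Its part in the results below was not tested. Endothelial markers summed to at most 0.599 FPKM, none of 4 reaching a mean of 1 FPKM, and among 4 leukocyte markers only CD68 reached it, with PTPRC near 0. The summed leukocyte list was between 3.21 and 3.49 FPKM in iEV and between 2.90 and 3.25 FPKM in iGLI2 libraries. In bulk RNA, fewer cells that express a gene and less RNA of that gene per cell cannot be told apart.

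Of the 10 genes, 6 were higher in iGLI2 than in iEV cells and none was lower at an adjusted p under 0.05 (limma on log2(FPKM + 1), Benjamini-Hochberg adjustment over the 12493 genes tested). They were SPOCK2, SDC1, SDC2, SDC3, GPC1 and GPC4. AGRN, HSPG2 and SDC4 were tested and not called. SPOCK1, below a mean of 1 FPKM, was not tested, and SPOCK2 passed this filter only through its iGLI2 values, so the 9 genes tested are not a full account of the 10, and SPOCK2 had to differ. Without SPOCK2, 5 of 8 were called higher, 4 of them by at least 2-fold, and the median log2 fold change was 0.87. Over all genes tested, 10.1% were called higher, 11.8% lower and 21.9% in either direction. Total FPKM was between 981344 and 1082687 in iEV and between 803149 and 889559 in iGLI2 libraries, and small RNA genes took 45.4% to 48.4% and 38.9% to 40.4% of it. With small RNA genes left out and the libraries rescaled, the share of all calls that were higher went from 46.0% to 59.3%, while the members stayed at 6 higher and 0 lower. With SPOCK2 counted, an increase of at least 2-fold on the log2(FPKM + 1) scale was called for 5 of the 9, against 2.59% of all genes tested. The same 6 genes had groups that did not overlap, or 5 of 8 without SPOCK2, which held for 42% of all genes tested. The median log2 fold change of the 9, SPOCK2 included, was 1.06, against -0.015 over all genes tested. The shares over all genes were not cut to genes at 1 FPKM in both groups, so they are no matched background for the 8. Since the set was chosen with earlier results of these data known, the counts describe it and are no independent support.

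**Figure D1:**
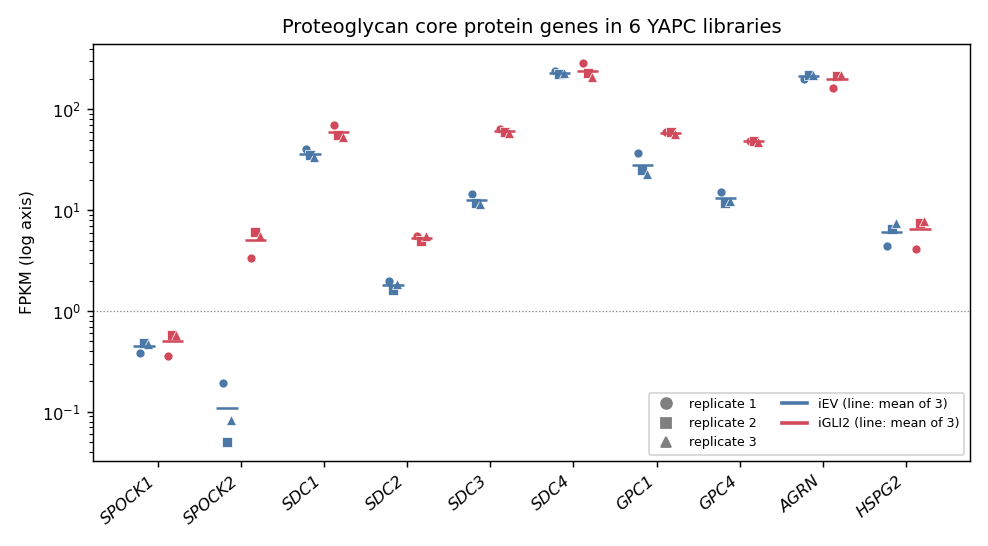
FPKM on a log axis for the 10 genes in each of the 6 libraries, with iEV in blue, iGLI2 in red, a marker shape per replicate number and a line at the mean of 3; the dotted line marks 1 FPKM. Red and blue points stand apart for SPOCK2, SDC1, SDC2, SDC3, GPC1 and GPC4 and mix for SPOCK1, SDC4, AGRN and HSPG2.

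SPOCK2, which encodes testican-2, was nearly silent in iEV cells and reached a low level in iGLI2 cells. Its iEV values were 0.194, 0.0502 and 0.0833 FPKM, and its iGLI2 values were 3.36, 6.14 and 5.57 FPKM. Every iGLI2 library lay far above every iEV library, and iGLI2 replicate 1 was the lowest of its group at 0.574 of the mean of the other two. GLI2 itself was lowest in that library, at 94.5 FPKM against 207 and 195 FPKM, while SDC1, SDC2, SDC3, SDC4 and GPC4 were highest in it. Any link to the level of GLI2 was not tested. On the log2(FPKM + 1) scale the log2 fold change of SPOCK2 was 2.41 (SE 0.20, limma adjusted p = 9.68e-04), with a 95% interval from 1.92 to 2.90. SPOCK2 entered the test only through its iGLI2 values, so the filter had already set a difference. Adding 1 holds down the change of so low a gene, and the ratio of mean FPKM was 46.1, or 5.53 as a log2 value. This ratio divides by an iEV mean of 0.109 FPKM, of which replicate 1 supplied the largest part. Its level in FPKM stood at the 0.776 percentile of genes tested in iEV and at the 28.2 percentile in iGLI2 cells.

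The promoter of SPOCK2 is shown because this gene had the largest change of the set. The 250 bases before its outermost RefSeq start, placed by exact match on GRCh37 (the build of the files, hg19) at chr10:73848791-73849040 on the minus strand, end where the gene's row in the table begins, at base 73848790. The row spans bases 73818792 to 73848790. The sequence is written 5′ to 3′ with CG dinucleotides in capitals.
SPOCK2: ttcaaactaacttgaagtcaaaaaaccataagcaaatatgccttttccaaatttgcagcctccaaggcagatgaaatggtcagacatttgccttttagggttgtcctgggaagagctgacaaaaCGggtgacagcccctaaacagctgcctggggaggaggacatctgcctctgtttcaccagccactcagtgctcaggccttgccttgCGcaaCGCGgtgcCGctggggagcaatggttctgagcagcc
It holds 5 CG dinucleotides.

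SPOCK1 encodes testican-1 and lies on chromosome 5 from 136310987 to 136835018 on the minus strand. Its values were 0.383, 0.486 and 0.471 FPKM in iEV and 0.354, 0.571 and 0.574 FPKM in iGLI2 replicates 1, 2 and 3. The groups overlapped, and iGLI2 replicate 1 was the lowest of all 6. With no filter on low values, the log2 fold change was 0.05 (limma adjusted p = 0.701). SPOCK3, the remaining testican gene and no member of the set, had 2.92, 1.73 and 1.59 FPKM in iEV and 7.66, 5.12 and 4.46 FPKM in iGLI2 replicates 1, 2 and 3. It was higher in iGLI2 cells, with a log2 fold change of 1.13 (SE 0.23, limma adjusted p = 0.0206). That call was lost without iEV replicate 2 (0.0841), iEV replicate 3 (0.083) or iGLI2 replicate 2 (0.0639), values that are limma adjusted p.

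Among the syndecans, SDC3 changed most. Syndecan-3 is best known from nervous tissue, where it takes part in cell adhesion and growth factor binding. In iEV libraries SDC3 stood at 14.3, 11.9 and 11.4 FPKM, and in iGLI2 libraries at 64.1, 60.0 and 58.2 FPKM. The iGLI2 values were close together and each was more than 4 times the highest iEV value. Group means were 12.5 ± 1.58 and 60.8 ± 3.03 FPKM (SD, n = 3). The difference was 2.20 on the log2(FPKM + 1) scale (SE 0.10, limma adjusted p = 1.62e-04). Its level moved from the 53.1 to the 87.7 percentile of genes tested. Leaving out any single library moved this change no further than 2.14 to 2.29.

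The SDC3 row spans chromosome 1 from 31342313 to 31381480 on the minus strand. Its upstream sequence is shown for comparison with that of SPOCK2, since the pair had the largest changes of the set. The 250 bases before the outermost RefSeq start lie at chr1:31381606-31381855 of GRCh37 on the minus strand, with CG dinucleotides in capitals.
SDC3: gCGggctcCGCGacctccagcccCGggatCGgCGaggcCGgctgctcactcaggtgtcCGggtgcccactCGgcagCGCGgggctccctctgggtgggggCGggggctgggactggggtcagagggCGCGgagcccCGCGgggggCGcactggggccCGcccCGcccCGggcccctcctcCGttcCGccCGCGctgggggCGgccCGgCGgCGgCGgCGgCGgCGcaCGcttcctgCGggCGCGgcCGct
It holds 37 CG dinucleotides, where the same stretch of SPOCK2 holds 5. The start lies 125 bases outside the row in the table.

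SDC1 encodes syndecan-1, the main syndecan of many epithelia. Its values were 40.4, 35.5 and 33.6 FPKM in iEV and 69.4, 55.8 and 53.0 FPKM in iGLI2 replicates 1, 2 and 3. The groups did not overlap, and replicate 1 was the highest in both. The log2 fold change was 0.68 (SE 0.12, limma adjusted p = 0.0143). This call was lost without iEV replicate 2 (limma adjusted p = 0.0653) and without iEV replicate 3 (0.0631). SDC1 lies on chromosome 2 from 20400558 to 20425194 on the minus strand.

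SDC2, which encodes syndecan-2, a syndecan of mesenchymal cells in particular, was the lowest of the family. It lies on chromosome 8 from 97505882 to 97624037 on the plus strand. Its iEV values were 1.98, 1.63 and 1.87 FPKM and its iGLI2 values 5.52, 4.93 and 5.49 FPKM. All iGLI2 libraries were above all iEV libraries, with little spread in either group. The log2 fold change was 1.16 on the log2(FPKM + 1) scale (SE 0.08, limma adjusted p = 6.64e-04), while the ratio of the means, with nothing added, was 1.54 as a log2 value.

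SDC4 encodes syndecan-4, found at focal adhesions of many cell types, and was the highest syndecan in both groups. It had 241, 227 and 229 FPKM in iEV and 289, 227 and 211 FPKM in iGLI2 replicates 1, 2 and 3. The groups overlapped, with the highest and the lowest of the 6 values both among the iGLI2 libraries. The log2 fold change was 0.05 (SE 0.12, limma adjusted p = 0.812), with a 95% interval from -0.26 to 0.35. Without iGLI2 replicate 1 it was -0.08. SDC4 lies on chromosome 20 from 43953929 to 43977064 on the minus strand.

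The balance within the syndecan family therefore differed between the groups. SDC4 supplied 81.0% to 83.0% of the summed syndecan FPKM in iEV libraries and 64.4% to 67.5% in iGLI2 libraries. SDC3 supplied 4.13% to 4.81% in iEV and 15.0% to 17.8% in iGLI2 libraries, and thereby drew level with SDC1, at 12.2% to 13.6% in iEV and 16.0% to 16.2% in iGLI2 libraries. SDC2 was the smallest part, at 0.590% to 0.678% in iEV and 1.29% to 1.67% in iGLI2 libraries. For each of the 4 genes the shares of the groups did not overlap. The shares are parts of a common sum and so depend on each other, and the SDC4 values in FPKM did overlap. The summed FPKM was between 275 and 298 in iEV and between 328 and 428 in iGLI2 libraries. These shares are a description over 3 libraries against 3, where an exact two-sided permutation test cannot give a p under 0.1, and were not tested.

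**Figure D2:**
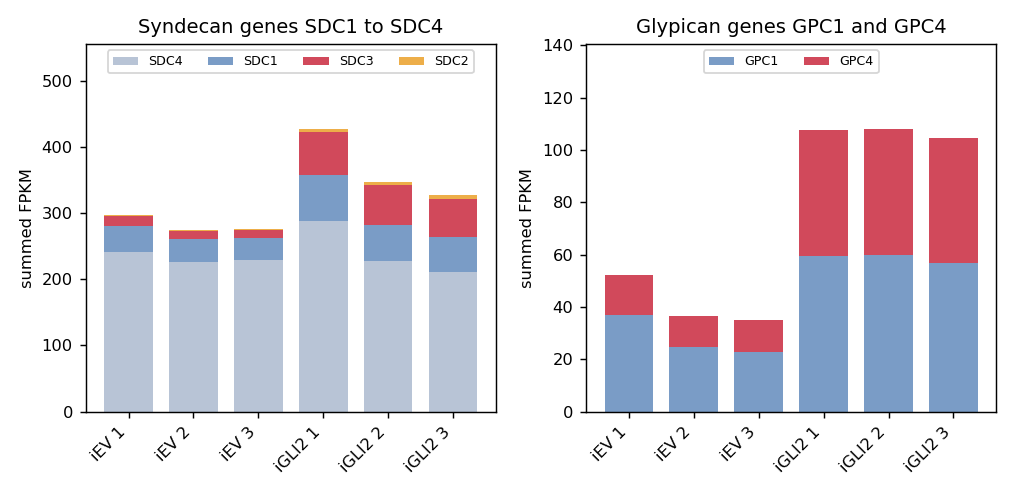
Summed FPKM of the syndecan genes (left) and of GPC1 and GPC4 (right) in each library, with both axes from 0 and each color a gene. The SDC4 block is of like height in both groups apart from iGLI2 replicate 1, while the SDC3 and SDC1 blocks are taller in iGLI2 libraries, and the glypican bars stand between 105 and 108 FPKM in iGLI2 against 35.0 to 52.1 FPKM in iEV libraries.

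Both glypican genes of the set were higher in iGLI2 cells. GPC4 encodes glypican-4, a surface proteoglycan that takes part in WNT and FGF signaling. Its iEV values were 15.1, 11.9 and 12.2 FPKM, and its iGLI2 values 48.4, 48.1 and 47.8 FPKM. The 3 iGLI2 libraries were almost equal, and each was more than 3 times the highest iEV library. The log2 fold change was 1.81 (SE 0.10, limma adjusted p = 3.05e-04), and 1.75 to 1.91 when any single library was left out.

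The GPC4 row spans chromosome X from 132435064 to 132549205 on the minus strand. The 250 bases before its outermost RefSeq start, the last promoter stretch shown, complete the genes with changes over 3-fold on the log2(FPKM + 1) scale. They lie at chrX:132549518-132549767 of GRCh37 on the minus strand, with CG dinucleotides in capitals.
GPC4: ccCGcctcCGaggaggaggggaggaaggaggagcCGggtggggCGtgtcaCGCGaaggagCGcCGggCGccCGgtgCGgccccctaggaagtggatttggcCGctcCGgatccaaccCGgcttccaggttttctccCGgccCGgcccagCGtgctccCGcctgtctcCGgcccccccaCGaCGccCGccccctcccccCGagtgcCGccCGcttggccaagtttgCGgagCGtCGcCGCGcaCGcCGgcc
It holds 32 CG dinucleotides and so resembles the stretch of SDC3 more than that of SPOCK2 in this measure. The start lies 312 bases outside the row in the table.

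GPC1 encodes glypican-1, which binds heparin-dependent growth factors. It had 36.9, 24.8 and 22.8 FPKM in iEV and 59.4, 60.0 and 56.8 FPKM in iGLI2 replicates 1, 2 and 3. The groups did not overlap, and iEV replicate 1 lay well above the other two of its group. The log2 fold change was 1.06 (SE 0.18, limma adjusted p = 0.0105), 1.27 without iEV replicate 1, and the call was lost without iEV replicate 2 (limma adjusted p = 0.0513). GPC1 lies on chromosome 2 from 241375115 to 241407495 on the plus strand. GPC4 went from 29.1% to 34.8% of the summed FPKM of both genes in iEV libraries to between 44.5% and 45.7% in iGLI2 libraries. Of the other glypican genes, GPC3 was called higher, from a mean of 2.92 to 4.27 FPKM (log2 fold change 0.42, limma adjusted p = 0.00832). It lies under the level set for naming genes and was chosen after its values were seen.

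The secreted basement membrane proteoglycans did not pass the test. AGRN, which encodes agrin, was among the highest genes of the set, with 198, 221 and 222 FPKM in iEV and 163, 214 and 220 FPKM in iGLI2 replicates 1, 2 and 3. The groups overlapped, and iGLI2 replicate 1 was lowest. Its log2 fold change was -0.11 (SE 0.13, limma adjusted p = 0.579), with a 95% interval from -0.43 to 0.20. Without iGLI2 replicate 1 it was 0.02. AGRN lies on chromosome 1 from 955503 to 991499 on the plus strand, where an unnamed noncoding RNA gene of the GENCODE annotation, not found by name in the table, shares 402 exon bases with it.

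HSPG2, which encodes perlecan, had 4.42, 6.48 and 7.42 FPKM in iEV and 4.13, 7.54 and 7.75 FPKM in iGLI2 replicates 1, 2 and 3. Replicate 1 was the lowest in both groups, and the groups overlapped. The log2 fold change was 0.06 (SE 0.26, limma adjusted p = 0.901), with a 95% interval from -0.59 to 0.70 that still holds a 1.5-fold change in either direction. HSPG2 lies on chromosome 1 from 22138758 to 22263790 on the minus strand. LDLRAD2, on the opposite strand, shares 2122 exon bases with it in GENCODE, and counting is not stated to use strand, but LDLRAD2 was listed at only 0.026 FPKM.

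**Figure D3:**
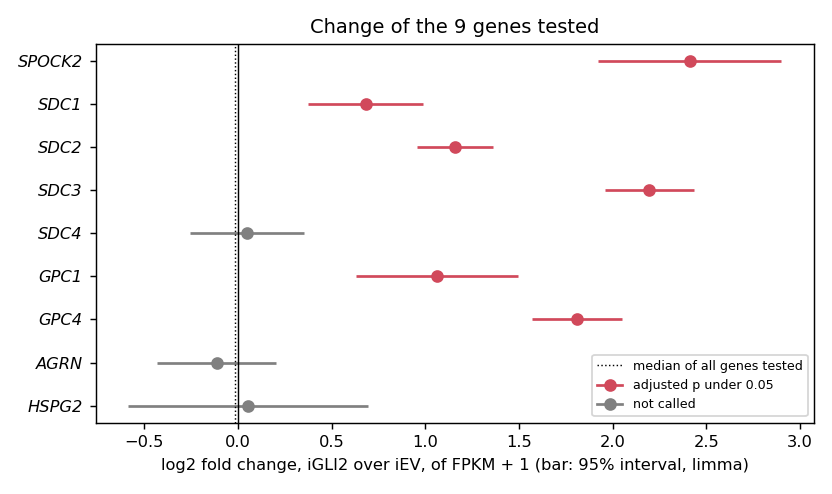
Log2 fold change of FPKM + 1 in iGLI2 over iEV cells for the 9 genes tested, with 95% intervals from limma. Genes with an adjusted p under 0.05 are red and lie between 0.68 (SDC1) and 2.41 (SPOCK2); SDC4, AGRN and HSPG2 are grey and their intervals span 0.

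Replicate 1 held the same end of the range in both groups for most of these genes, though by small margins in some. It was the lowest of its group in both iEV and iGLI2 cells for 3 genes (SPOCK1, AGRN and HSPG2) and the highest in both for 5 (the 4 syndecans and GPC4), with SPOCK2 and GPC1 the other two. In iGLI2 cells it was 1.008 times the mean of the other libraries for GPC4 and 1.06 times for SDC2, but 1.32 times for SDC4 and 0.541 times for HSPG2. Over all genes tested, deviations of the replicate 1 libraries from their group means correlated at 0.204, the highest of any pairing between the groups. How many of all genes tested held the same end was not counted, so the pattern is not particular to these genes on the values given. Without either replicate 1 library, an alternative chosen after seeing the data, the same 6 genes were called higher, with log2 fold changes of 2.68 for SPOCK2, 2.25 for SDC3, 1.91 for GPC4, 1.26 for GPC1, 1.18 for SDC2 and 0.64 for SDC1. SDC4 (-0.06), AGRN (-0.03) and HSPG2 (0.12) were again not called, with limma adjusted p of 0.381, 0.442 and 0.258. Over all 12493 genes tested, this setting called 2661 higher, against 1262 with all 6 libraries, so calls were easier to reach. SPOCK2 again entered the test only through its iGLI2 values.

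The order of levels also differed. In iEV cells it ran, on mean FPKM, from SDC4 (232) and AGRN (214) through SDC1 (36.5), GPC1 (28.2), GPC4 (13.1), SDC3 (12.5) and HSPG2 (6.10) to SDC2 (1.83), SPOCK1 (0.447) and SPOCK2 (0.109). SDC4 and AGRN lay apart only narrowly, with 227 FPKM as the lowest SDC4 and 222 FPKM as the highest AGRN value, the ranges of GPC4 and SDC3 overlapped, and so did those of SDC1 and GPC1. In iGLI2 cells SDC4 (242) and AGRN (199) again led with overlapping ranges, followed by SDC3 (60.8), SDC1 (59.4) and GPC1 (58.7), whose ranges overlapped, and by GPC4 (48.1). HSPG2 (6.47), SDC2 (5.31) and SPOCK2 (5.02) came next with overlapping ranges, and SPOCK1 (0.500) was last.

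Heparan sulfate is built on these core proteins by a chain of enzymes: a linkage sugar is laid down, EXT1 and EXT2 extend the chain, and sulfotransferases, an epimerase and sulfatases shape it. A list of 36 genes for these enzymes, for heparanase and for the supply of sulfate donor and sugar precursors was counted. Of these, 23 were tested, 3 were higher and 4 lower in iGLI2 cells, and 16 were not called, beside 10.1% higher and 11.8% lower over all genes tested. The median log2 fold change was 0.04. Genes of this and the following lists that were not called were picked for naming after their values were seen. EXT1, the chain polymerase subunit, fell from 17.4, 19.5 and 18.2 FPKM in iEV to 8.73, 9.50 and 9.58 FPKM in iGLI2 replicates 1, 2 and 3 (log2 fold change -0.91, SE 0.07, limma adjusted p = 7.46e-04). Its partner EXT2 was not called, with means of 34.9 and 36.5 FPKM (limma adjusted p = 0.504). The EXT1 groups were far apart, with every iGLI2 library near 9 FPKM. EXTL2, which acts on the linkage region, had means of 3.47 and 5.04 FPKM, and its call (log2 fold change 0.44, limma adjusted p = 0.0253) was lost without any one of iEV replicates 2 and 3 and iGLI2 replicates 2 and 3, with adjusted p between 0.0595 and 0.0965.

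Of the 6 sulfotransferase genes tested, HS6ST1 and HS3ST1 were called higher and HS6ST2 lower, while NDST1, NDST2 and HS2ST1 were not called. HS6ST1, which adds sulfate at the 6-O position of glucosamine, rose from 19.4, 17.9 and 18.1 FPKM in iEV to 41.8, 44.1 and 47.9 FPKM in iGLI2 replicates 1, 2 and 3 (log2 fold change 1.23, SE 0.07, limma adjusted p = 3.74e-04). HS6ST2, which carries out the same reaction, fell from 16.5, 15.8 and 14.9 to 9.59, 9.04 and 9.97 FPKM (log2 fold change -0.67, SE 0.07, limma adjusted p = 0.00168). The genes thus went from similar levels in iEV cells to levels that differed more than 4-fold in iGLI2 cells. HS3ST1, the 3-O-sulfotransferase known for making antithrombin-binding heparan sulfate, rose from between 12.0 and 13.1 to 26.1, 32.0 and 36.8 FPKM (log2 fold change 1.24, SE 0.13, limma adjusted p = 0.00204). The N-sulfotransferase NDST1 and the 6-O-sulfatase SULF2 were not called, with log2 fold changes of -0.03 and -0.05. Under the level set for naming genes, and named after their values were seen, heparanase (HPSE) went from 3.44 to 1.83 FPKM and the sulfate donor synthase PAPSS2 from 4.33 to 2.11 FPKM. Both were called lower (limma adjusted p = 0.00661 and 0.0114), and the PAPSS2 call was lost without iGLI2 replicate 2 (0.0502).

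**Figure D4:**
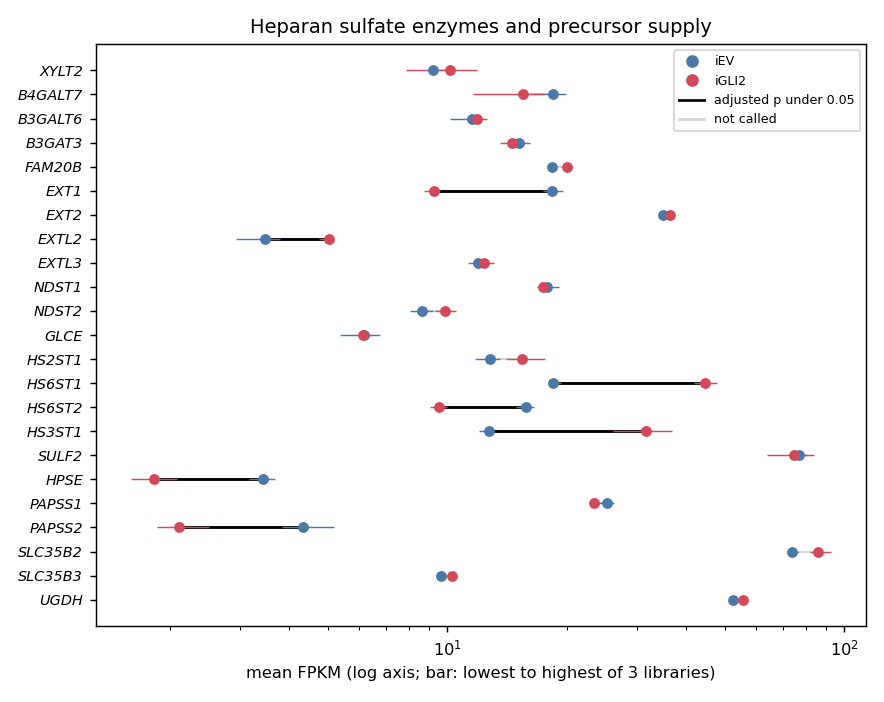
Mean FPKM on a log axis of the 23 heparan sulfate genes tested, iEV in blue and iGLI2 in red, with bars from the lowest to the highest of 3 libraries and black connectors for an adjusted p under 0.05. HS6ST1 and HS3ST1 lie to the right and EXT1, HS6ST2, HPSE and PAPSS2 to the left in iGLI2 cells, while most enzymes of the linkage region and the chain show points close together.

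A list of 20 other proteoglycan core proteins had 7 genes tested, of which SPOCK3 and GPC3 were higher and none lower, beside 10.1% and 11.8% over all genes tested. The number higher fell to 1 without iEV replicate 2, iEV replicate 3 or iGLI2 replicate 2. COL18A1, a heparan sulfate proteoglycan of basement membranes, was not called, with means of 52.2 and 53.9 FPKM (limma adjusted p = 0.885). BGN, which encodes biglycan, had 0.494 and 2.19 FPKM, so it entered the test only through its iGLI2 values, and missed the threshold (limma adjusted p = 0.0528). It passed with a pseudocount of 0.1 FPKM (0.0368) and with small RNA genes left out and the libraries rescaled (0.0237). Stromal proteoglycans such as DCN, LUM, OGN and ACAN were listed at or near 0, and DCN and LUM are also among the 6 fibroblast markers above. VCAN, on the same list, was detected, with means of 1.76 FPKM in iEV and 1.55 FPKM in iGLI2 libraries, and was not called (limma adjusted p = 0.441). The median log2 fold change of the list was 0.03.

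Among 24 genes for proteins that shed, anchor or bind these proteoglycans, 19 were tested, 6 were higher and 2 lower, beside 10.1% and 11.8% over all genes tested, with a median log2 fold change of 0.24. The number higher was 3 without iEV replicate 2, iGLI2 replicate 2 or iGLI2 replicate 3, and 9 without iGLI2 replicate 1 or with the rescaling. MMP7, a protease known to shed syndecan-1, had 312, 333 and 299 FPKM in iEV and 80.7, 178 and 162 FPKM in iGLI2 replicates 1, 2 and 3. Its groups were far apart, with iGLI2 replicate 1 the lowest, and it was called lower (log2 fold change -1.24, SE 0.30, limma adjusted p = 0.0339). The spread between the iGLI2 libraries was large, and leaving out any of iEV replicates 1, 2 and 3 or iGLI2 replicate 3 ended the call, with limma adjusted p between 0.0668 and 0.117. MMP2, a gelatinase, had 0.614, 0.752 and 0.640 FPKM in iEV and 3.66, 6.90 and 6.49 FPKM in iGLI2 libraries (log2 fold change 1.96, SE 0.21, limma adjusted p = 0.0023). It passed the filter on low values only through its iGLI2 values, and without it 5 of 18 were higher. Its activator MMP14 had means of 20.0 and 27.5 FPKM (log2 fold change 0.44, limma adjusted p = 0.0133). The membrane sheddases ADAM10 and ADAM17 were not called, at 26.1 and 22.1 FPKM and at 16.9 and 16.1 FPKM.

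Several listed proteins bind the cytoplasmic tails of syndecans directly or through partners. SDCBP, which encodes syntenin, had 221 and 263 FPKM and was not called (limma adjusted p = 0.308). CASK and PRKCA (protein kinase C alpha) were called higher, with log2 fold changes of 0.35 and 0.45 (limma adjusted p = 0.0103 and 0.00786), and GIPC1 was called lower, at -0.32 (0.0131). Among basement membrane partners, COL4A1 was higher, from 6.43 ± 0.610 to 10.4 ± 0.690 FPKM (SD, n = 3 each, log2 fold change 0.62, limma adjusted p = 0.00509), and so was NID1, from 4.97 to 6.74 FPKM (0.38, limma adjusted p = 0.0244). LAMA5, LAMC1 and COL4A2 had groups that did not overlap but missed the threshold, with limma adjusted p of 0.0764, 0.0555 and 0.0667. With the rescaling all 3 passed, at 0.0224, 0.0117 and 0.0133. DAG1, the dystroglycan receptor of agrin and perlecan, had 40.3 and 37.6 FPKM and was not called. The calls of CASK and NID1 were lost without any one of iEV replicates 2 and 3 and iGLI2 replicates 2 and 3. Limma adjusted p then lay between 0.0533 and 0.0607 for CASK and between 0.0611 and 0.0937 for NID1. MMP14 lost its call without iEV replicate 2, iGLI2 replicate 2 or iGLI2 replicate 3 (0.0536 to 0.0605). GIPC1 lost its call without iEV replicate 2 (0.0663).

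The promoter windows of 7 of the 10 genes, 9 windows in all since SDC1 and SPOCK2 have a pair each, were read from the RefSeq table (GRCh38.p14), each with 250 bases before and 50 after a start. SPOCK1, SDC2 and AGRN had no entry. The SPOCK2 windows held 8 and 13 CG dinucleotides, and the windows of the other genes between 23 and 46, where the median of all 35116 windows was 14. SPOCK2 thus lay near the middle of all promoters and the others above it. SDC3 and GPC1, which were called higher, had 46 and 45, and HSPG2, which was not called, had 44. GGGCGG, the box bound by SP1, was found on either strand in 7 of the 9 windows, all but those of SPOCK2, and in 45% of all windows. GACCACCCA, a GLI consensus sequence, was in 0 of the 9 windows on either strand and in 0.236% of all windows. Its last 7 bases, CCACCCA, which any full match also holds, were in 4 of the 9 (SPOCK2, SDC1, SDC3 and SDC4) and in 9.19% of all windows. These matches describe letters only and are no sign of binding or of its absence.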

How the data were processed

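Total RNA of 6 YAPC libraries (3 iEV, 3 iGLI2, 6 days of Dox) was sequenced by the authors, whose pipeline was Trimmomatic for trimming, TopHat2 for alignment (build hg19) and Cuffdiff 2.1.1, as the methods and the submitters' processing notes name them. The deposited values carry no unit in the header and were read as FPKM from their form, and the gene annotation, the scaling between libraries and the treatment of reads with several matches are not given in the sources used here. Total FPKM was 981344 to 1082687 in iEV and 803149 to 889559 in iGLI2 libraries, and reads per value are unknown. Of 27024 entries, 1252 off the primary chromosomes were left out, as were 330 with a higher entry of the same name, and 0 columns of values lacked a sample. The test planned for FPKM was run: limma 3.58.1 in R 4.3.3 on log2(FPKM + 1) with an intensity trend, condition only, on 12493 genes whose 6 libraries averaged 1 FPKM or more, two-sided, Benjamini-Hochberg adjusted, threshold 0.05. The same fit was also run on simulated data, and its outcome is not given here. Locus starts, counted from 0 in the table, are given from 1. Strand and overlaps come from GENCODE release 44 lifted to GRCh37, and promoters from RefSeq (GRCh38.p14). Python 3.11.15, pandas 2.3.3 and matplotlib 3.10.9 were used. Genes named beside the 10 are those of 3 lists with an adjusted p under 0.05 and at least 5 FPKM in the higher group, at most 8 a list, and the report says where others were picked after their values were seen. The members and lists were chosen with earlier results of these data known.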

Additional observations from a re-analysis of the deposited data

How the results depend on the processing

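Among the proteoglycan genes, 6 were called higher and 0 lower with a pseudocount of 0.1 FPKM, no filter on low values, upper quartile scaling, small RNA genes left out with rescaling, the replicate block and limma without the trend, and 4 were called higher with a minimum mean of 5 FPKM, which leaves SPOCK2 and SDC2 untested. Leaving out any single library gave 4 to 6 higher and 0 lower. The count was 4 without iEV replicate 2 (SDC1 and GPC1 lost) and 5 without iEV replicate 3 (SDC1 lost). None of the 6 changed direction in these alternatives, whereas the genes not called did. With single libraries left out, SDC4 ran from -0.084 to 0.14, AGRN from -0.19 to 0.023 and HSPG2 from -0.13 to 0.31 (log2 fold change), and HSPG2 was -0.06 and -0.08 without iGLI2 replicates 2 and 3. Over all genes, single libraries left out gave 1223 (without iEV replicate 2) to 3753 calls (without iGLI2 replicate 1), against 2742 with all 6. Those ranges were 1 to 3 higher for other core proteins, and 3 to 9 higher and 0 to 3 lower for shedding and binding partners. The cause was not tested.

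At a minimum mean of 5 FPKM, 2 heparan sulfate enzymes were lower and 0 other core proteins higher, since fewer genes were tested. Deviations of same-numbered libraries correlated at 0.204, 0.0919 and 0.0276 for numbers 1, 2 and 3. The best match of iEV replicate 2 was iGLI2 replicate 3 (0.117), so the numbers were not taken as pairs. In the library titles, replicates 1 and 2 of each group share a code number, and replicate 3 has another. The titles of number 3 end in different letters in the groups. What these codes mean is not stated, so the libraries of a group may not be equally separate. With the replicate block, calls over all genes went from 2742 to 3928, enzymes higher to 5 and partners higher to 10 (LAMA5, LAMC1 and COL4A2 then passed, at limma adjusted p of 0.0316, 0.0146 and 0.0427), and no call of the proteoglycan genes changed. Without both replicate 1 libraries, chosen after seeing the data, there were 5467 calls, 6 enzymes higher, 1 other core protein lower and 10 partners higher, and SDC4 was at -0.056. The replicate block with small RNA genes left out and rescaling, also chosen then, gave 6 enzymes and 11 partners higher. Reads per gene are unknown, so what depth limits, chiefly for SPOCK1 and for SPOCK2 in iEV cells, could not be given.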

Other observations

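Some genes of the lists lay under the mean of 1 FPKM and were not tested, although their groups did not overlap. Lack of overlap held for 42% of all genes tested, in either direction. The genes named here were chosen after their values were seen and are given as values. NDST3, an N-sulfotransferase of heparan sulfate, was listed at 0.0983, 0.0376 and 0.0850 FPKM in iEV libraries and at 0.598, 0.516 and 0.454 FPKM in iGLI2 libraries. NOTUM, a secreted enzyme that removes the lipid from WNT proteins, was listed at 0.0408, 0.176 and 0.212 FPKM in iEV and 0.365, 0.980 and 0.910 FPKM in iGLI2 libraries. COL15A1, a collagen core protein of basement membrane zones, was between 0.0256 and 0.0396 FPKM in iEV and between 0.135 and 0.312 FPKM in iGLI2 libraries. LRP4, a receptor for agrin, was between 0.0418 and 0.107 FPKM in iEV and between 0.193 and 0.359 FPKM in iGLI2 libraries. EXTL1, MMP9 and NID2 were also higher in iGLI2 libraries. PRELP and HS3ST6 went the other way. PRELP was between 0.0984 and 0.134 FPKM in iEV and between 0.0681 and 0.0803 FPKM in iGLI2 libraries. HS3ST6 was between 0.0599 and 0.0667 FPKM in iEV and listed at 0 in iGLI2 libraries.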
